A study of Mus musculus with 30 samples.

Results

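The genes described here encode the receptors for glutamate and the proteins that accompany them. They are 35 of the 54393 genes in the deposited expression table, chosen by name. There are 4 AMPA receptor subunits (Gria1 to Gria4), 7 NMDA receptor subunits (Grin1, Grin2a to Grin2d, Grin3a and Grin3b), 5 kainate receptor subunits (Grik1 to Grik5) and the delta receptor Grid1. A further 7 are metabotropic receptors (Grm2 to Grm8), 6 are transmembrane AMPA receptor regulatory proteins, or TARPs (Cacng2, Cacng3, Cacng4, Cacng5, Cacng7 and Cacng8), and 5 are other auxiliary subunits (Neto1, Neto2, Shisa9, Cnih2 and Cnih3). The cells were CGR8, an established mouse embryonic stem cell line, sequenced as poly(A)-selected RNA at 3 stages: embryonic stem cells (ESC), embryoid bodies at day 8 after 2 additions of retinoic acid (EB8), and cultures labelled as glutamatergic neurons 7 days after plating of the progenitors (DIV7).

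At each stage 5 lines were compared, with 2 libraries (A and B) per group and 30 libraries in all. WT is the unedited parental line. Puf60_mEx5_HOM carries a homozygous deletion of exon 5 of Puf60, which encodes a splicing factor that acts at 3' splice sites. Puf60_pEx5_HOM includes that exon constitutively on both alleles, and Puf60_pEx5_HET does so on 1 allele. Rbm38KO carries a deletion in Rbm38, which encodes an RNA-binding protein. The edited lines were made with CRISPR-Cas9 as clones. Independent clones are mentioned for the series, yet no label names the clone behind a library, and p-values here reflect library-to-library spread alone, which may be technical.

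AMPA, kainate and NMDA receptors are tetrameric ion channels opened by glutamate, and metabotropic receptors signal through G proteins. AMPA receptors carry most fast excitatory current in the brain. NMDA receptors need the obligate subunit encoded by Grin1 together with a Grin2 or Grin3 subunit. TARPs, cornichons (Cnih2, Cnih3) and Shisa9 bind AMPA receptors and change their gating and traffic, and Neto1 and Neto2 do so for kainate receptors. Neurons make several of these subunits in alternative forms. Each AMPA subunit gene holds a pair of exons, flip and flop, of which a channel carries one. Flop channels generally desensitise faster, and in rodent brain flop forms become more common with maturation.

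The flip and flop exons are printed because the results on splicing turn on them. They were read 5' to 3' on the coding strand from GENCODE transcripts on mouse build GRCm38. The Gria1 exons lie on the plus strand at chr11:57309769-57309883 (flop) and chr11:57310608-57310722 (flip), and those of Gria2 on the minus strand at chr3:80691320-80691434 and chr3:80690404-80690518. The Gria3 exons lie on the plus strand at chrX:41654810-41654924 and chrX:41669501-41669615, and those of Gria4 on the minus strand at chr9:4432773-4432887 and chr9:4427030-4427144. All are coding exons of 115 nt. Capitals mark the codon that starts at base 32, which reads asparagine in each flop exon and serine in each flip exon, the residue known to set how strongly cyclothiazide blocks desensitisation.
Gria1 flop: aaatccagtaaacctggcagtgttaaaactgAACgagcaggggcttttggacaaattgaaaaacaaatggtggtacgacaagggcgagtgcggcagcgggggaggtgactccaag
Gria1 flip: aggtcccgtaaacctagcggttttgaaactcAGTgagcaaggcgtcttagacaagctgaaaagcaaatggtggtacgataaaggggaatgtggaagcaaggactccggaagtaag
Gria2 flop: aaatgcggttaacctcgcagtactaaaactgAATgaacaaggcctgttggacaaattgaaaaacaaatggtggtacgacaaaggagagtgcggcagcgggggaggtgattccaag
Gria2 flip: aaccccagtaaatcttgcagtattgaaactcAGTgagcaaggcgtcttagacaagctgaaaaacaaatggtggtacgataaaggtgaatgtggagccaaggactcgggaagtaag
Gria3 flop: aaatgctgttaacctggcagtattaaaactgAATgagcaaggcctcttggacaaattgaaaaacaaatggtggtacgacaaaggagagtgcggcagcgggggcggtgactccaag
Gria3 flip: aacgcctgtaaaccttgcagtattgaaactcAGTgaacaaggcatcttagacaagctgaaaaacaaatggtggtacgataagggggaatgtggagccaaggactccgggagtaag
Gria4 flop: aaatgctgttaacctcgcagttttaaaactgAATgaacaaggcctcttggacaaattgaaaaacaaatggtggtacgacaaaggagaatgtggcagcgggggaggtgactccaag
Gria4 flip: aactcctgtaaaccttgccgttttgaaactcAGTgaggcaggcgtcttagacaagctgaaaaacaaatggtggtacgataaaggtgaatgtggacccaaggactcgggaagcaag
Within a gene, flip and flop differed at 36 of 115 bases in Gria1, 36 in Gria2, 32 in Gria3 and 31 in Gria4. Of the 38 whole codons in each exon, 8 to 10 encoded another residue.

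Grin1, on the minus strand at chr2:25291181-25319187, has 2 further cassette exons that return in the results below. The N1 exon (chr2:25311343-25311405, 63 nt) adds 21 residues to the extracellular domain and is known to lessen inhibition by protons. Capitals in it mark its 6 lysine and arginine codons. The C1 exon (chr2:25294438-25294548, 111 nt) lies in the cytoplasmic tail, and capitals in it mark 3 consecutive arginine codons, the core of its known signal for retention in the endoplasmic reticulum.
Grin1 N1 exon: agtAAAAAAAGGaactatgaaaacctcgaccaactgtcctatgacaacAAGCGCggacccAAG
Grin1 C1 exon: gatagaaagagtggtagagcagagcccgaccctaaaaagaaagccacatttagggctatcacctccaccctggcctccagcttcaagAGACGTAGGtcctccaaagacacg

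Expression was measured as spliced reads, that is reads across exon-exon junctions, summed per gene and scaled to the depth of each library as CPM, the count a library of standard depth would give. Libraries held 23204150 to 38571969 such reads. The edits were visible in the reads. Rbm38 had 0 spliced reads in all 6 Rbm38KO libraries. The percentage of Puf60 transcripts including exon 5 (percent spliced in, PSI) was 20.7 to 44.0 in WT, 7.49 to 13.01 in Puf60_mEx5_HOM, 93.2 to 98.97 in Puf60_pEx5_HOM, 49.2 to 64.9 in Puf60_pEx5_HET and 22.9 to 48.4 in Rbm38KO. The value in Puf60_mEx5_HOM was thus above 0 in every library. The level of Puf60 was also below WT in that line, under 2-fold at each stage. The log2 changes were −0.625 in ESC, −0.435 at EB8 and −0.548 at DIV7 (limma adjusted p = 1.64e-05, 0.000195 and 8.71e-05). In Puf60_pEx5_HOM the level of Puf60 did not differ from WT past the adjusted p at any stage. At DIV7 the label of glutamatergic neurons was only partly matched by markers. Slc17a6, the vesicular glutamate transporter VGLUT2, stood at 26.3 to 58.2 CPM, whereas Slc17a7 (VGLUT1) and Tbr1 stayed under 1 CPM in every library. Gad1, which makes GABA, stood at 298 to 551 CPM, and Slc6a5, the neuronal glycine transporter, at 138 to 260 CPM. In bulk samples of this kind, fewer cells of a type and less RNA per cell cannot be told apart.

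Glutamate receptor genes were acquired in steps along the WT course. A gene was called when its limma adjusted p was under 0.05 and it changed at least 2-fold on the log2(CPM + 1) scale. From ESC to EB8, 17 of the 33 members that could be tested rose and 0 fell, where 39.9% of all 13938 tested genes were called, 21.7% as higher and 18.2% as lower. From EB8 to DIV7, 27 rose and 1 fell, with 30.3% of all genes called, 17.6% higher and 12.7% lower. The median log2 change was 1.06 and 2.73 over the members against 0.03 and 0.02 over all genes. Grin3b and Grm6 stayed under 1 CPM in every library and were not tested. A member present only at DIV7 entered the test through its DIV7 libraries, so these counts describe members that could be measured.

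**Figure D1:**
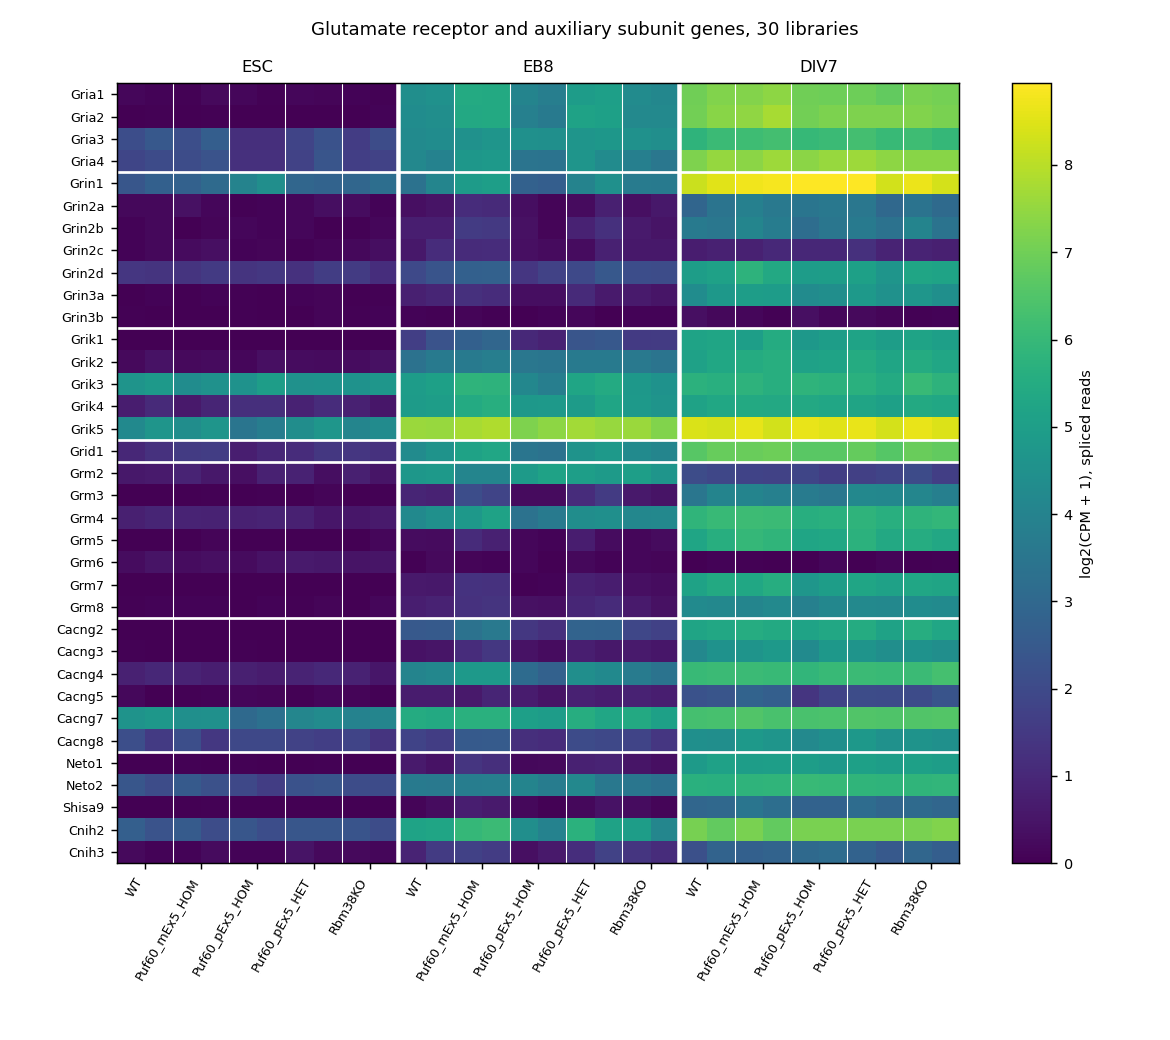
Expression of the 35 genes (rows, grouped by receptor class) in the 30 libraries (columns, ordered by stage and line), as colour on a log2(CPM + 1) scale. Most genes are near 0 in ESC and are highest at DIV7, whereas Grm2 is highest at EB8 and Grin3b and Grm6 stay near 0 throughout.

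The AMPA subunits all rose by EB8, though from unlike levels in ESC. Over the WT ESC libraries Gria1 and Gria2 had 5 and 1 spliced reads, whereas Gria3 and Gria4 had 224 and 166. Gria2, whose edited subunit makes AMPA receptors impermeable to calcium, was at 0 and 0.0353 CPM in the WT ESC libraries, 19.5 and 20.3 CPM at EB8 and 129 and 161 CPM at DIV7. The ESC value rested on 1 read, against 1402 at EB8, which gives a ratio of 1150 with a 95% counting interval of 206 to 45470. Gria1 rose by 4.36 and then 2.64 on the log2 scale, Gria3 by 2.03 and 1.65 and Gria4 by 2.13 and 3.29. All 4 AMPA subunit genes were called in both steps.

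The NMDA subunits came later. From ESC to EB8 5 of the 6 tested NMDA genes passed the adjusted p as higher, where 39.4% of all genes did. On the log2(CPM + 1) scale only Grin1 also reached 2-fold, at 4.31 and 5.62 CPM in ESC and 9.25 and 15.8 CPM at EB8 (log2 change 1.15, SE 0.22, limma adjusted p = 9.56e-05). That change was under 2-fold with quantile scaling (0.69), without library A of ESC WT (0.99) and without library B of EB8 WT (0.79). Grin1 then reached 296 and 370.4 CPM at DIV7 (log2 change 4.66). Grin2a, Grin2b, Grin2d and Grin3a rose by 2.74, 2.86, 2.90 and 3.71 in this second step, so 5 of the 6 tested NMDA genes were called. Grin2c, known mainly from cerebellar granule cells and glia, stayed at 0.643 and 0.773 CPM at DIV7 and was not called.

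Levels of different genes can be compared only per length, which the authors' deposited RPKM allow, with 1 value per group. In WT at DIV7 Grin1 stood at 65.7 RPKM, Grin3a at 16.2, Grin2d at 8.68, Grin2b at 6.46, Grin2a at 2.32 and Grin2c at 0.19. The order among partners thus placed Grin3a and Grin2d, both known from embryonic and brainstem or spinal neurons, above Grin2a, the subunit of mature forebrain. Among the AMPA genes Gria4 had 70.4 RPKM, Gria2 49.3, Gria1 31.1 and Gria3 18.9, and among the kainate genes Grik5 had 57.5 RPKM, Grik3 12.0, Grik1 11.7, Grik2 10.5 and Grik4 6.16. Cnih2 was the highest of all 35 members at 105 RPKM. These single values carry no replicate error, so neighbours in the order cannot be separated.

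The kainate genes were spread over both steps. Grik5, which encodes a high-affinity subunit, stood at 18.0 and 24.3 CPM in ESC, 190.9 and 188 CPM at EB8 and 344 and 326 CPM at DIV7. Its first step was called (log2 change 3.12) and its second, at 0.82, was under 2-fold. Grik4 followed the same order with 4.04 and 0.31. Grik1 had no spliced read in ESC and at least 58.0-fold more at EB8, against a floor of 3 reads over the group. Grik3 stood apart by its small steps. Like Grik5 it was already expressed in ESC, at 24.0 and 27.4 CPM. It reached 29.8 and 33.1 CPM at EB8 and 53.0 and 48.7 CPM at DIV7. Neither step of Grik3 reached 2-fold.

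Among the metabotropic receptors Grm2 alone reversed. This group II receptor, which lowers transmitter release, was at 0.509 and 0.565 CPM in ESC, 25.8 and 26.5 CPM at EB8 and 3.18 and 2.76 CPM at DIV7. It rose by 4.15 and then fell by 2.78 (SE 0.19, limma adjusted p = 2.04e-11), the only member called as lower in either step. Grm5, a group I receptor, was at 0.228 and 0.198 CPM at EB8 and 37.5 and 47.4 CPM at DIV7, a log2 change of 5.15. Grm7 and Grm8, presynaptic group III receptors, rose by 4.71 and 3.42 in the same step, Grm3 by 2.88 and Grm4 by 1.57. Both of the receptors best known from astrocytes, Grm3 and Grm5, were thus among those that rose.

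The auxiliary subunits also divided by the step in which they were called. Cacng4 and Cacng2, which encode the TARPs γ-4 and γ-2 (stargazin), rose by 3.17 and 2.52 from ESC to EB8, and Cacng2 had no spliced read in WT ESC and at least 91.4-fold more at EB8. Cacng3 and Cacng8, the γ-3 and γ-8 TARPs of forebrain, were called only in the second step, at 3.90 and 2.73. Cacng7 was already the highest member of all in ESC at 19.8 RPKM. Cnih2 rose by 2.73 and 1.72 and Neto2 by 1.43 and 2.00, whereas Neto1 (4.44) and Shisa9 (2.77) were called only from EB8 to DIV7. Over the 7 members without a WT ESC read, lower bounds on the first step ran from 3.01-fold for Shisa9 to 91.4-fold for Cacng2. On raw ratios without a pseudocount, with these genes at their bounds, the median log2 change of the members was 3.17 in the first step and 2.87 in the second. The order of the steps was thus the reverse of that on the log2(CPM + 1) scale (1.06 and 2.73), which understates changes of low genes. The calls of Neto2 (0.95) and Cnih3 (0.78) in the first step were under 2-fold with quantile scaling, and that of Cnih3 also without library B of ESC WT (1.00) or of EB8 WT (0.73). In the second step Cnih3 was under 2-fold without library A of EB8 WT (0.96) or library B of DIV7 WT (0.96).

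At EB8 the homozygous Puf60 lines lay on opposite sides of WT. In Puf60_mEx5_HOM 3 members rose and 0 fell against WT, with 1.64% of all genes called, 1.18% as higher. In Puf60_pEx5_HOM 0 rose and 6 fell, with 1.66% of all genes called, 1.44% as lower. The signs went further than the calls. Of 33 tested members 32 were higher in Puf60_mEx5_HOM and 30 were lower in Puf60_pEx5_HOM, with median log2 changes of 0.68 and −0.51, against 0.02 and 0.00 over all genes. Without the 2-fold condition 23 members passed the adjusted p as higher in Puf60_mEx5_HOM and 1 as lower, where 11.8% and 6.39% of all genes did, and 18 passed as lower in Puf60_pEx5_HOM, where 7.57% of all genes did. Both comparisons use the same WT libraries. The authors' deposited values were also read at a false discovery rate under 0.05 and at least 2-fold. By that rule 10 members were higher in Puf60_mEx5_HOM, as were 369 of all 25359 genes with a value. In Puf60_pEx5_HOM 13 members were lower, as were 500 of all genes.

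Grin1, the obligate NMDA subunit, showed the widest difference between the homozygous lines. At EB8 it stood at 9.25 and 15.8 CPM in WT, 29.01 and 30.9 CPM in Puf60_mEx5_HOM and 5.82 and 5.43 CPM in Puf60_pEx5_HOM. The 3 groups did not overlap, although the WT libraries lay far apart. The WT libraries differed in introns 4 to 18 and hardly in introns 1 to 3, with values given below. Grin1 rose by 1.24 in Puf60_mEx5_HOM (SE 0.22, limma adjusted p = 0.000791). Without library A of EB8 WT the difference was 0.88 (adjusted p = 0.0350) and no longer 2-fold. In Puf60_pEx5_HOM it was lower by just under 2-fold, with a log2 change of −0.99 (adjusted p = 0.00604).

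Gria2 and Grm3 were the other members that rose in Puf60_mEx5_HOM at EB8. Gria2 was at 19.5 and 20.3 CPM in WT, 41.4 and 42.5 CPM in Puf60_mEx5_HOM and 13.9 and 11.6 CPM in Puf60_pEx5_HOM (log2 change 1.04, SE 0.11, limma adjusted p = 4.56e-06 for the first line). The libraries of a group lay close together and the groups were separate. Grm3 was at 0.911 and 0.821 CPM in WT and 3.33 and 2.55 CPM in Puf60_mEx5_HOM (log2 change 1.07, adjusted p = 0.000122). The change was 0.93, under 2-fold, without library A of Puf60_mEx5_HOM. Gria1 stood just under 2-fold, with 20.6 and 22.04 CPM in WT, 43.2 and 42.1 CPM in Puf60_mEx5_HOM and a log2 change of 0.97.

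The 6 members that fell in Puf60_pEx5_HOM at EB8 were kainate, delta and auxiliary subunits. Cacng2 was at 4.64 and 4.84 CPM in WT and 1.72 and 1.35 CPM in Puf60_pEx5_HOM (log2 change −1.18, SE 0.13, limma adjusted p = 4.10e-06). Cacng4 was at 15.5 and 16.4 CPM against 7.78 and 5.85 CPM (log2 change −1.13). Both TARP genes were below WT in both libraries.
The kainate gene Grik3 was at 29.8 and 33.1 CPM in WT and 16.5 and 13.3 CPM in Puf60_pEx5_HOM, and Grik1 at 2.16 and 3.85 CPM against 1.06 and 0.789 CPM. Grid1, whose protein links synapses through neurexin and cerebellin partners, was at 18.8 and 23.4 CPM against 10.04 and 9.44 CPM. Cnih2, a cornichon that slows AMPA receptor deactivation, was at 35.6 and 37.4 CPM against 20.5 and 14.7 CPM (log2 change −1.03, adjusted p = 0.00770). These 6 genes were called on the same libraries, so the lack of overlap between the groups is not a separate result. The fold lay close to the threshold, at −1.03 to −1.04 for Grik1, Grik3, Grid1 and Cnih2, and Grik1 was under it with quantile scaling (−0.97). The count therefore fell from 6 to 1 without library B of EB8 Puf60_pEx5_HOM and to 2 without library B of EB8 WT. Cnih2 also lost its adjusted p in both cases (0.128 and 0.0718) and in a fit of the EB8 libraries alone (0.0785).

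**Figure D2:**
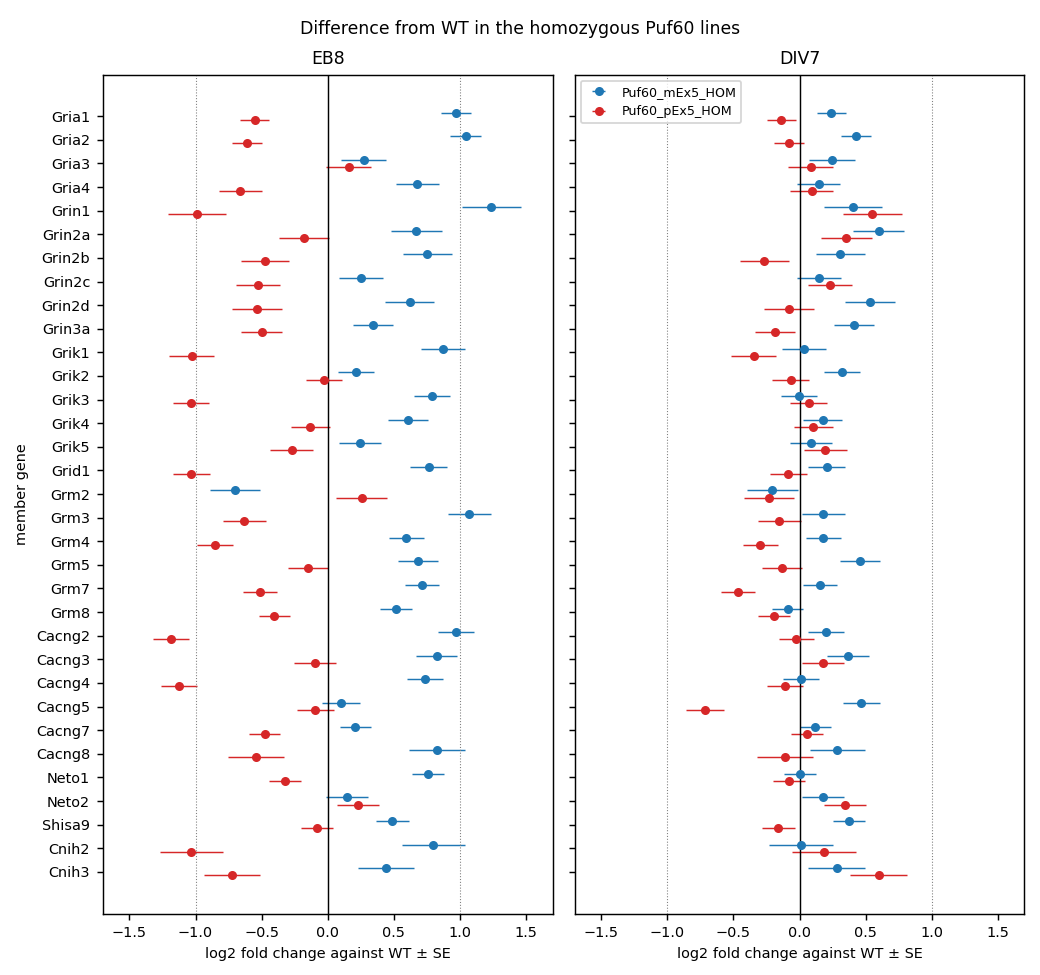
Difference from WT (log2 fold change with its standard error) of Puf60_mEx5_HOM and Puf60_pEx5_HOM at EB8 and at DIV7 for the 33 tested members, ordered by class. At EB8 nearly all points of Puf60_mEx5_HOM lie to the right of 0 and nearly all points of Puf60_pEx5_HOM to the left, with Gria3, Grik2, Grm2 and Neto2 among the exceptions near 0 or reversed, and at DIV7 both lines lie closer to 0.

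A direct comparison of the homozygous lines at EB8 avoids the shared control. Of the 33 members 18 were higher in Puf60_mEx5_HOM than in Puf60_pEx5_HOM and 0 lower, where 9.99% of all genes were called, 6.95% as higher. The median log2 difference was 1.15 against 0.01 over all genes. The count was 18 in every fit that left out 1 library, although not of the same genes throughout (Neto1 fell to 0.99 without library A of Puf60_mEx5_HOM and Grin2d to 0.98 without library A of Puf60_pEx5_HOM). Every class contributed. There were 3 of 4 AMPA genes (Gria1 1.52, Gria2 1.65, Gria4 1.34), 3 of 6 NMDA genes (Grin1 2.23, Grin2b 1.23, Grin2d 1.15), 2 of 5 kainate genes (Grik1 1.90, Grik3 1.82) and Grid1 (1.80). There were also 3 of 6 metabotropic receptors (Grm3 1.703, Grm4 1.45, Grm7 1.23), 3 of 6 TARPs (Cacng2 2.15, Cacng4 1.86, Cacng8 1.37) and 3 of 5 other auxiliary genes (Cnih2 1.83, Cnih3 1.17, Neto1 1.09). The differences in Cacng2 (SE 0.13, limma adjusted p = 5.73e-11) and Grin1 (SE 0.22, adjusted p = 1.38e-07) were the widest.

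A few members did not follow. Grm2 was at 25.8 and 26.5 CPM in WT, 15.6 and 15.8 CPM in Puf60_mEx5_HOM and 28.4 and 34.8 CPM in Puf60_pEx5_HOM at EB8. Its direction was thus the opposite, at −0.96 between the homozygous lines (limma adjusted p = 0.000337), just under 2-fold. It is also the one member that fell from EB8 to DIV7 in WT. Gria3, Grik2, Cacng5 and Neto2 did not pass the adjusted p between the lines, with differences of 0.12, 0.24, 0.20 and −0.08. Gria3 was at 18.5 and 19.2 CPM in WT, 21.7 and 24.3 CPM in Puf60_mEx5_HOM and 21.7 and 20.7 CPM in Puf60_pEx5_HOM. It was the one AMPA subunit gene that did not separate the lines.

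Markers of neurons moved with the receptor genes at EB8. The summed level of 7 pan-neuronal markers was 1152 to 1279 CPM in WT, 1736 to 2000 CPM in Puf60_mEx5_HOM and 744 to 881 CPM in Puf60_pEx5_HOM, with median log2 changes of 0.73 and −0.70 and 5 of 7 past the adjusted p in each line (1 of them also 2-fold). The sum of 7 GABAergic and glycinergic markers was 102 to 127 CPM in WT, 257 to 263 CPM in Puf60_mEx5_HOM and 40.9 to 58.1 CPM in Puf60_pEx5_HOM. The sum of 8 glutamatergic markers was 14.3 to 15.7, 16.1 to 17.5 and 13.1 to 13.5 CPM, and that of the neural progenitor markers 1727 to 1744, 1817 to 1999 and 1716 to 1781 CPM. Mesenchymal markers summed to 142 to 284 CPM in WT, 337 to 741 CPM in Puf60_mEx5_HOM and 67.4 to 78.7 CPM in Puf60_pEx5_HOM. The part of these markers in the receptor differences was not tested.

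At DIV7 no member was called against WT. There, limma called 0 members in Puf60_mEx5_HOM (10 at an unadjusted p under 0.05, 0.395% of all genes called). Yet 30 of 33 were higher than WT in that line, with a median log2 change of 0.20 against 0.01 over all genes. In Puf60_pEx5_HOM limma also called 0 (6 at an unadjusted p under 0.05, 2.57% of all genes called). Each share of all genes called follows the full rule, so it is no background for a count at an unadjusted p. The same holds for such counts below. Grin1 stood at 296 and 370.4 CPM in WT, 430.4 and 447 CPM in Puf60_mEx5_HOM and 480.4 and 489 CPM in Puf60_pEx5_HOM. Both edited lines were above WT, with log2 changes of 0.41 and 0.55 that did not pass (adjusted p = 0.388 and 0.100). Cacng2 stood at 36.5 and 40.0, 45.6 and 42.5, and 35.7 and 39.6 CPM, so that WT and Puf60_pEx5_HOM overlapped.
Past the adjusted p but under 2-fold in Puf60_pEx5_HOM were Cacng5 (log2 change −0.71) and Grm7 (−0.46), where 6.40% of all genes passed as lower. Cacng5, the gene of the TARP γ-5, was also the only member called between the homozygous lines at DIV7, at 6.12 and 5.53 CPM in Puf60_mEx5_HOM and 1.60 and 2.49 CPM in Puf60_pEx5_HOM (log2 difference 1.18, adjusted p = 9.49e-06, 2.78% of all genes called). It was 0.97, under 2-fold, without library A of DIV7 Puf60_pEx5_HOM. Without the 2-fold condition 11 of 33 members passed the adjusted p as higher in Puf60_mEx5_HOM than in Puf60_pEx5_HOM at DIV7 and 0 as lower, where 7.72% of all genes passed as higher. The median difference was 0.22.

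The change from EB8 to DIV7 itself differed from WT in Puf60_pEx5_HOM. In the interaction test 6 members rose more steeply than in WT and 0 less steeply, with 4.06% of all genes called. They were Grin1 (1.54 on the log2 scale, SE 0.32, limma adjusted p = 0.00425), Cnih3 (1.32, adjusted p = 0.00765), Cnih2 (1.22, adjusted p = 0.0278), Cacng2 (1.16, adjusted p = 0.000513), Grik3 (1.10, adjusted p = 0.000941) and Cacng4 (1.02, adjusted p = 0.00183). Grik3 shows the shape plainly. From EB8 to DIV7 it went from 16.5 and 13.3 CPM to 54.6 and 52.1 CPM in Puf60_pEx5_HOM, and from 29.8 and 33.1 CPM to 53.0 and 48.7 CPM in WT. The DIV7 libraries ended at the same level from EB8 libraries that were separate.
Cnih3, the second cornichon, was at 0.302 and 0.526 CPM at EB8 and 7.27 and 7.95 CPM at DIV7 in Puf60_pEx5_HOM, against 0.854 and 1.92 CPM and then 3.54 and 6.11 CPM in WT. It ended above WT (log2 change 0.60 at DIV7, adjusted p = 0.0609). The count of 6 became 3 without library B of EB8 WT, library B of EB8 Puf60_pEx5_HOM or library A of DIV7 WT. Cacng4 was under 2-fold when libraries were scaled to their totals (0.95) or by quantiles (0.88). Cnih2 and Cnih3 also missed the adjusted p in a fit of fewer libraries (Cnih3 0.0596 with only the 4 groups concerned) or under quantile scaling (Cnih2 0.0595). In Puf60_mEx5_HOM limma called 0 members for the change (15 at an unadjusted p under 0.05, 0.861% of all genes called). The median was −0.44, and 6 members passed the adjusted p under 2-fold as less steep (1.60% of all genes did so), namely Gria1, Gria2, Grik3, Grm3, Cacng2 and Neto1.

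**Figure D3:**
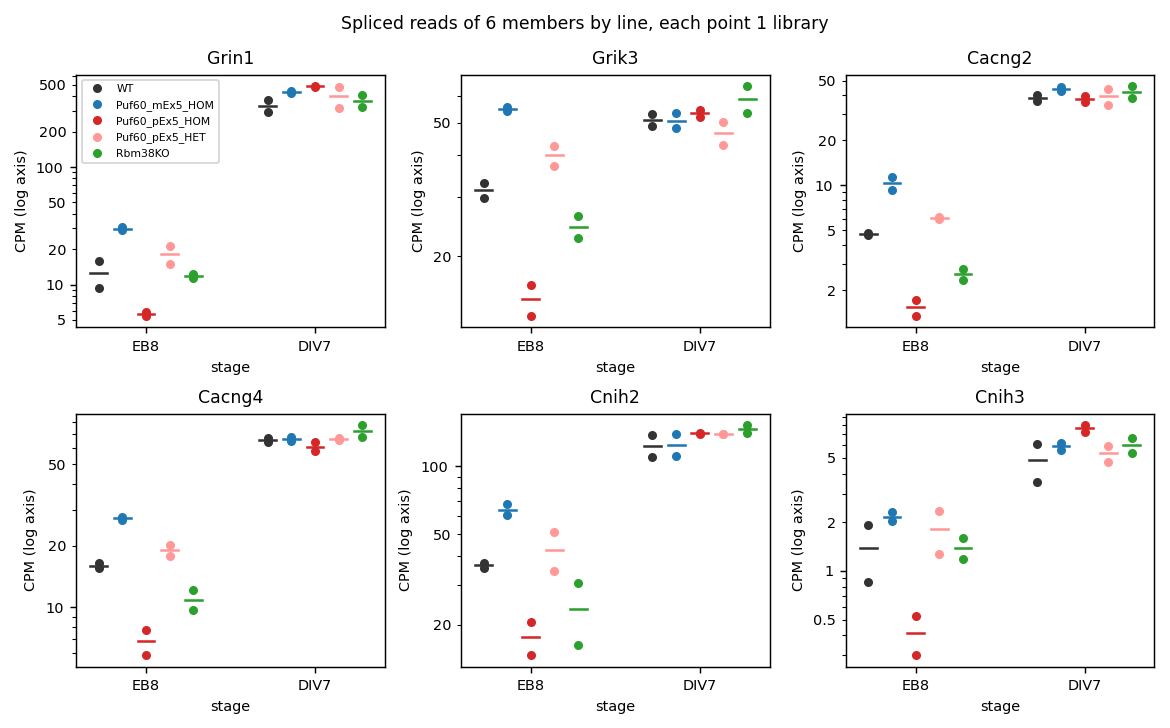
CPM of spliced reads (log axis) at EB8 and DIV7 for the 6 genes called in the interaction test, in each of the 5 lines. Points are libraries and bars are group means. At EB8 Puf60_pEx5_HOM has the lowest mean for each gene, and at DIV7 its points lie close to or above those of WT.

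Other cell types moved at DIV7 in Puf60_pEx5_HOM. The sum of 6 pluripotency markers was 47.6 to 57.4 CPM in WT and 163 to 238 CPM in Puf60_pEx5_HOM, with 5 of 6 called as higher and a median log2 change of 2.17. Astrocyte markers summed to 1190 to 1241 CPM in WT and 467 to 759 CPM in Puf60_pEx5_HOM, oligodendrocyte lineage markers to 88.0 to 109 and 20.8 to 55.0 CPM, and mesenchymal markers to 630 to 2090 and 277 to 448 CPM. The pan-neuronal sums overlapped, at 3477 to 4035 and 3503 to 3956 CPM. The part of these shifts in the DIV7 receptor values was not tested.

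The heterozygous and Rbm38 lines changed little. Limma called 0 members at EB8 in Puf60_pEx5_HET (10 at an unadjusted p under 0.05, 0.115% of all genes called) and 0 in Rbm38KO (10 at an unadjusted p under 0.05, 0.0430% called). In Puf60_pEx5_HET 31 of 33 members were nevertheless higher than WT at EB8, with a median log2 change of 0.23 against 0.01 over all genes. This was the side of Puf60_mEx5_HOM and not of the line homozygous for the same allele, and the comparisons share the WT libraries. Gria2 was at 34.4 and 32.8 CPM there and Gria1 at 29.9 and 31.6 CPM. Both were above both WT libraries and passed the adjusted p under 2-fold, at 0.73 (adjusted p = 0.00307) and 0.51 (adjusted p = 0.0454), where 0.136% of all genes passed as higher. The pan-neuronal sum was 1524 to 1628 CPM in Puf60_pEx5_HET, also above WT, and its part in these values was not tested. In Rbm38KO 26 of 33 members were lower, with a median log2 change of −0.20 against 0.00 over all genes. Cacng2, at 2.77 and 2.34 CPM, passed the adjusted p at −0.69 (adjusted p = 0.0367), where 0.0502% of all genes passed as lower. The pan-neuronal sum in Rbm38KO was 792 to 1102 CPM. At DIV7 limma called 0 members in Puf60_pEx5_HET (2 at an unadjusted p under 0.05, 0.574% called) and 0 in Rbm38KO (0 at an unadjusted p under 0.05, 0.301% called). For the change from EB8 to DIV7 it called 0 in Puf60_pEx5_HET (5 at an unadjusted p under 0.05) and 0 in Rbm38KO (7 at an unadjusted p under 0.05), with 0.0359% of all genes called in each.

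Undifferentiated cells differed in 3 members, all in Puf60_pEx5_HOM, where 2.47% of all genes were called. Grin1 was at 4.31 and 5.62 CPM in WT ESC, 5.87 and 7.49 CPM in Puf60_mEx5_HOM and 14.9 and 20.4 CPM in Puf60_pEx5_HOM. It rose by 1.64 in the latter (SE 0.22, limma adjusted p = 3.79e-05), the opposite of its direction at EB8. Cacng7, the TARP γ-7 gene at chr7:3332955-3368221, was at 22.9 and 25.8 CPM in WT and 7.25 and 8.89 CPM in Puf60_pEx5_HOM, a log2 change of −1.49 (SE 0.12, adjusted p = 3.20e-08). Rbm38KO also lay below WT at 14.5 and 15.96 CPM (log2 change −0.64, adjusted p = 0.0260), and Puf60_pEx5_HET at 16.3 and 18.98 CPM did not pass (−0.44, adjusted p = 0.448).
Gria3, at chrX:41400854-41678601, was at 3.29 and 4.49 CPM in WT and 1.28 and 1.28 CPM in Puf60_pEx5_HOM, a log2 change of −1.09 (adjusted p = 0.000111). It was −0.91, under 2-fold, without library B of ESC WT. Gria4, Grik5 and Neto2 were lower past the adjusted p at −0.71, −0.81 and −0.46, where 8.55% of all genes passed as lower. Between the homozygous lines the same 3 genes were called in ESC, with 2.47% of all genes called. The count was 5 without library A of ESC Puf60_mEx5_HOM. Limma called 0 members against WT in ESC in Puf60_mEx5_HOM (2 at an unadjusted p under 0.05, 0.0789% called), Puf60_pEx5_HET (1, 0.0359% called) and Rbm38KO (3, 0.0359% called).

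The ESC reads of Grin1 and Gria3 were spread unevenly along the gene. In Grin1, introns 1 to 3 had a mean of 1 and 1.33 spliced reads per intron in WT ESC, against 8.27 and 10.3 over introns 4 to 18. In Puf60_pEx5_HOM ESC the means were 4.67 and 8.67 against 27.9 and 39.7. At EB8 the WT means were 16.7 and 15.7 against 18.3 and 34.1, so library B was still uneven. In Puf60_mEx5_HOM they were 40.3 and 43.3 against 54 and 54.5, and in Puf60_pEx5_HOM 4 and 4.67 against 12.1 and 10.1. The EB8 values of Grin1 given above sum over both stretches. At DIV7 the WT means were 489 and 611 against 454 and 549, so both stretches were covered alike. This boundary was chosen after the profile was seen. Gria3 showed the reverse in ESC, with 9.5 and 12.1 reads per intron over introns 1 to 10 and 0.40 and 1.2 over introns 11 to 15 in WT, and 96.3 and 109.8 against 120 and 144 at DIV7. In ESC the first introns of Grin1 were thus thinly covered, and the reads of Gria3 came mostly from its 5' part. An antisense gene, Grin1os, neighbours Grin1, and whether the counting used strand is not given in the sources used here. The counts hold only reads across the exon-exon junctions of Grin1, and any part of Grin1os in them was not tested.

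**Figure D4:**
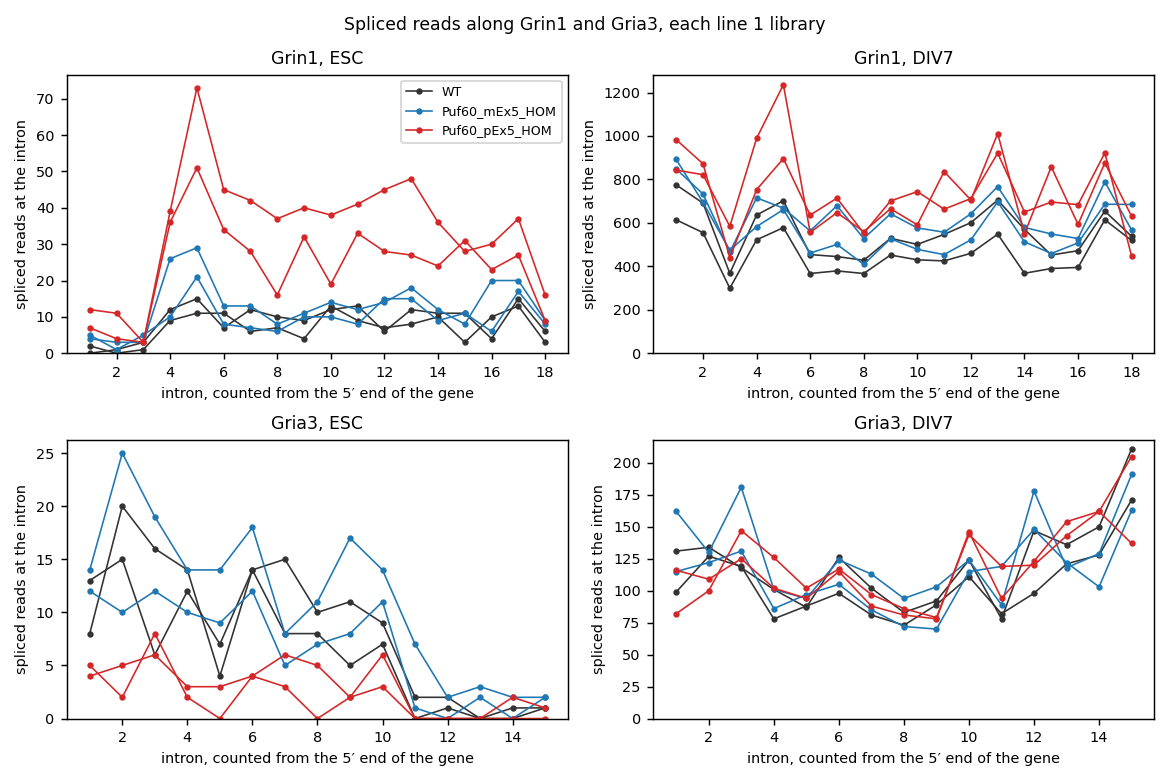
Spliced reads per intron along Grin1 and Gria3, numbered from the 5' end, in ESC and at DIV7 for WT, Puf60_mEx5_HOM and Puf60_pEx5_HOM, with 1 line per library. In ESC most reads of Grin1 lie from intron 4 onward and most of Gria3 up to intron 10, whereas at DIV7 every intron is covered.

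Most calls in receptor gene splicing fell between EB8 and DIV7 in WT, the step in which more member events could be tested. An event was called at a limma adjusted p under 0.05 and a difference of at least 10 points of PSI. Of 59 member events with enough reads, 20 in 9 genes were called, 5 as higher and 15 as lower, with 15.9% of all events called. AMPA receptor flip exons gave way. The Gria1 flip exon was at PSI 82.5 and 86.9 in WT EB8 and 44.1 and 52.2 at DIV7 (difference −36.5 points, limma adjusted p = 3.17e-05), and the flop exon went from 14.6 and 10.2 to 54.0 and 51.1 (40.1 points). The Gria4 flip exon went from 86.7 and 77.5 to 51.4 and 50.9 (−31.0 points) and flop from 10.1 and 3.31 to 44.4 and 45.1 (38.0 points). In both genes flip led at EB8 and the forms were near parity at DIV7.
The Gria2 flip exon went from 74.4 and 75.3 to 43.5 and 41.8 (−32.2 points, adjusted p = 3.76e-07). Its flop exon was already at 56.0 and 55.7 and reached 63.1 and 61.8, which did not pass (adjusted p = 0.285). Each exon is measured against its own junctions, so the values of a pair need not sum to 100. The Gria3 flop exon went from 4.86 and 3.27 to 20.1 and 19.5 (15.7 points, adjusted p = 0.0216). Gria3 flip stood at 100 and 100 and then 79.9 and 82.0, which did not pass (adjusted p = 0.130). Gria3 thus kept the most flip at DIV7. Without either EB8 WT library the Gria3 flop change missed the threshold (adjusted p = 0.110 and 0.111).

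**Figure D5:**
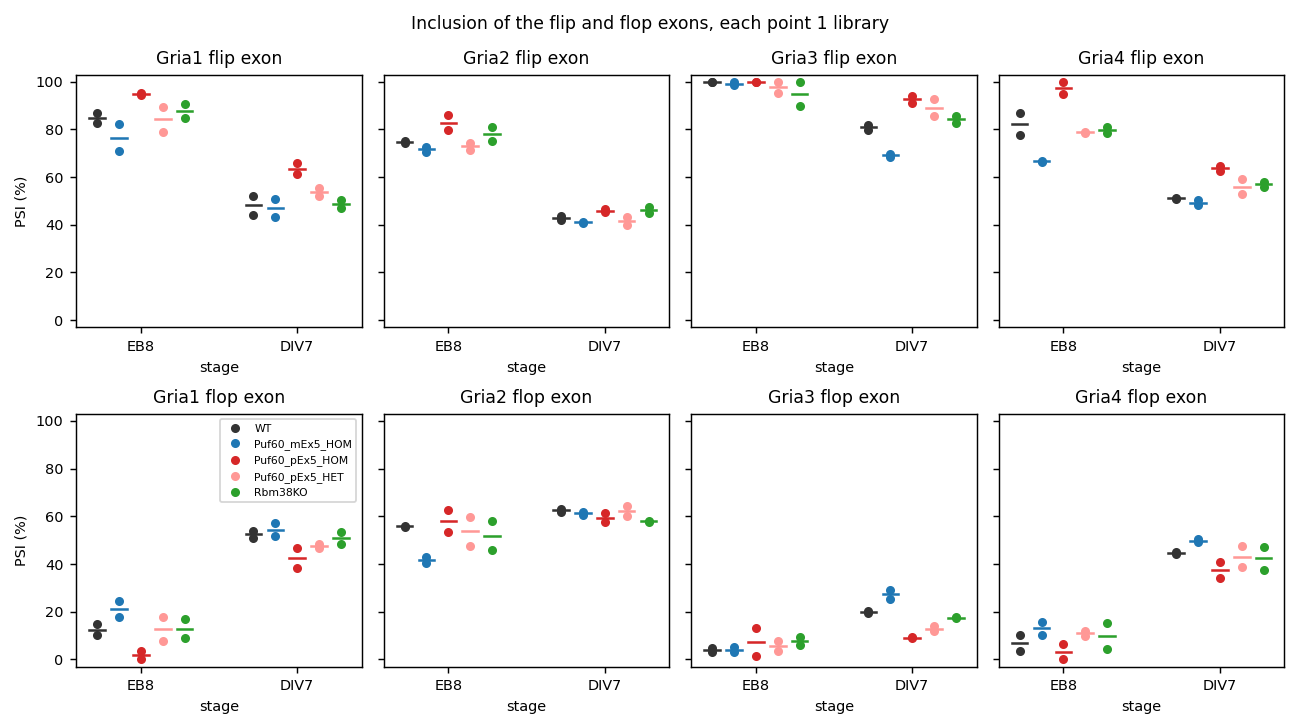
PSI of the flip and flop exons of Gria1 to Gria4 at EB8 and DIV7 in the 5 lines, with 1 point per library. In WT flip is lower and flop higher at DIV7 than at EB8, and at DIV7 the Puf60_pEx5_HOM points lie above the WT points for flip in each of the 4 genes.

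Other events followed the same step in WT. The Grin1 N1 exon fell from PSI 48.9 and 41.8 to 20.6 and 20.1 (−25.1 points, limma adjusted p = 0.000368). An intron of Grm2, 1601 nt long, was retained at PSI 82.9 and 83.7 at EB8 and 19.1 and 12.5 at DIV7 (−67.4 points, adjusted p = 1.41e-07), on 480 and 428 reads and then 28 and 27. The same gene lost most of its expression between these stages. Lower values were also called for retained introns of Cacng8 (−26.8 points), Neto2 (−26.8), Gria4 (−19.6), Gria3 (−19.6) and 4 introns of Gria2 (−15.1 to −32.9), some of which contain alternative exons. A Gria2 exon of 41 nt, whose length does not keep the reading frame, fell from 8.06 and 15.5 to 0.172 and 1.69. A Grin2d exon of 154 nt rose from 65.2 and 80.0 to 100 and 100, and a Neto2 donor that adds 21 nt from 42.7 and 55.5 to 62.1 and 70.3 (17.1 points, adjusted p = 0.0379). The Neto2 donor change missed the threshold without weights (adjusted p = 0.0561), without library A of EB8 WT (10.7 points, adjusted p = 0.406) and without library B of DIV7 WT (13.01 points, adjusted p = 0.218). Leaving out 1 WT library also ended the calls of the Grin2d exon, the 41-nt Gria2 exon (−7.12 points without library B of EB8), 1 intron of Gria2 and the introns of Gria3, Gria4 and Neto2.

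From ESC to EB8, 1 of 17 member events was called, with 12.0% of all events called. The Grin1 C1 exon, which carries the arginine run printed above, fell from PSI 76.0 and 48.4 in WT ESC to 20.0 and 7.94 at EB8 (−48.2 points, limma adjusted p = 0.00243). It was at 8.15 and 8.86 at DIV7. The ESC values rested on 22 and 23 reads, and without library A of ESC WT the change missed the threshold (adjusted p = 0.0589).

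The splice forms of the receptors differed from WT at DIV7 in Puf60_pEx5_HOM, a stage and line at which no receptor gene was called for its level. Of 80 member events 10 in 6 genes were called, 7 as higher and 3 as lower, with 1.15% of all events called. The flip exons of Gria1, Gria3 and Gria4 were called as higher. Each of these calls was lost whichever WT or Puf60_pEx5_HOM library was left out, and without weights for read number. Gria1 flip was at 61.3 and 65.8 against 44.1 and 52.2 in WT (15.4 points, limma adjusted p = 0.0402), Gria3 flip at 90.9 and 94.2 against 79.9 and 82.0 (11.6 points, adjusted p = 0.0474) and Gria4 flip at 62.6 and 64.7 against 51.4 and 50.9 (12.5 points, adjusted p = 0.0470). These groups did not overlap, which is not a separate result, since the exons were called on the same libraries. Gria3 flop was lower in step, at 9.37 and 8.78 against 20.1 and 19.5 (−10.7 points, adjusted p = 0.0492). Gria2 flip, at 46.5 and 45.2 against 43.5 and 41.8, was not called, and neither were the flop exons of Gria1, Gria2 and Gria4.

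The widest difference lay in the tail of Grin1. Its last exon can begin at alternative acceptors. The upstream site adds 359 nt to the shortest form and keeps the C2 cassette, whereas a downstream site that adds 3 nt gives the C2' ending, which is known to carry a PDZ-binding end. Use of the upstream acceptor was at PSI 43.1 and 32.6 in WT, 36.6 and 33.2 in Puf60_mEx5_HOM, 60.4 and 62.8 in Puf60_pEx5_HOM, 46.4 and 50.6 in Puf60_pEx5_HET and 47.9 and 40.8 in Rbm38KO, on 794 to 1631 reads. Puf60_pEx5_HOM stood above every other library. The difference from WT was 23.8 points (limma adjusted p = 0.00283), and the downstream acceptor mirrored it at −23.7 points (adjusted p = 0.00251). Puf60_pEx5_HET did not pass (10.7 points, adjusted p = 0.923). The intron of 3663 nt that holds the C1 exon overlaps this region and was read as retained at 38.3 and 46.8 against 30.6 and 19.7 (adjusted p = 0.0354).
At EB8 the upstream acceptor was at 57.0 and 82.8 in Puf60_pEx5_HOM against 30.8 and 48.6 in WT, the same direction on 21 to 49 reads, and did not pass (30.2 points, adjusted p = 0.243).

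The remaining calls at DIV7 were a Grin3a acceptor that adds 60 nt, at 32.3 and 26.3 in Puf60_pEx5_HOM against 9.90 and 7.94 in WT (20.4 points, limma adjusted p = 0.0485, 93 to 126 reads), and the 2 donors of the Neto2 event, with the longer form at 45.7 and 48.5 against 62.1 and 70.3 (−19.1 points, adjusted p = 0.0333). Flip of Gria1 and Gria4 fell from EB8 to DIV7 in WT, so the flip differences placed Puf60_pEx5_HOM on the EB8 side of WT DIV7. For Neto2 the WT change was itself lost when single libraries were left out. These calls rested on both libraries of each group. Leaving out 1 library left 2 or 3 of the 10 calls (2 without library B of DIV7 WT, 3 without library A), and the C2 acceptor pair of Grin1 was the only one kept in every such fit. A fit without the weights for read number called 0. The raised pluripotency sums and lowered glial sums of Puf60_pEx5_HOM at DIV7, given above, apply here too, and their part in these PSI values was not tested.

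Other comparisons of the edited lines with WT gave no called member event by limma. At an unadjusted p under 0.05 there were 12, 13, 6 and 2 of 67 events at EB8 in Puf60_mEx5_HOM, Puf60_pEx5_HOM, Puf60_pEx5_HET and Rbm38KO, where 0.545%, 1.99%, 0.0143% and 0.00356% of all events were called. At DIV7 there were 8, 12 and 2 of 80 in Puf60_mEx5_HOM, Puf60_pEx5_HET and Rbm38KO, with 0.0601%, 0.0113% and 0% called. In ESC there were 0, 1, 0 and 1 of 24, with 0%, 1.28%, 0.0136% and 0% called. The shares called follow the full rule, so they are no background for the counts at an unadjusted p. The share of all events at an unadjusted p is not given here, so no excess can be read from these counts.
Set directly against Puf60_pEx5_HOM, Puf60_mEx5_HOM differed at DIV7 in 8 events of 4 genes (2.57% of all events called). Gria3 flip was at 69.8 and 68.6 in Puf60_mEx5_HOM against 90.9 and 94.2 (−23.4 points, adjusted p = 0.00108), Gria3 flop at 25.5 and 29.2 against 9.37 and 8.78 (18.3 points, adjusted p = 0.00186), and Grin1 N1 at 12.5 and 12.3 against 21.5 and 23.9 (−10.3 points, adjusted p = 0.00178). WT lay between them in each, at 79.9 and 82.0, 20.1 and 19.5, and 20.6 and 20.1. The difference in the upstream Grin1 acceptor was −26.7 points (adjusted p = 0.000511). At EB8 there were 4 called events, all lower in Puf60_mEx5_HOM (5.74% of all events called), among them Gria4 flip at 66.4 and 66.7 against 94.9 and 100 (−30.9 points). In ESC there were 0 (2 at an unadjusted p under 0.05, 2.07% called).

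Genes that work beside the receptors were read from a list of 32 scaffolds, glutamate transporters and kinases. In WT 17 rose and 3 fell from ESC to EB8, where 21.7% and 18.2% of all genes did, and 16 rose and 4 fell from EB8 to DIV7, where 17.6% and 12.7% did. At EB8 Puf60_mEx5_HOM had 2 higher and 1 lower (1.18% and 0.466% of all genes), with Dlg2, the scaffold PSD-93, at 1.13, Shank1, a postsynaptic density scaffold, at 1.09 and the kinase gene Camk2a at −1.16. Puf60_pEx5_HOM had 0 higher and 5 lower (0.215% and 1.44% of all genes), led by Shank1 (−1.61), Dlg2 (−1.33) and the vesicular transporter Slc17a6 (−1.24). Between the homozygous lines 12 were higher and 1 lower in Puf60_mEx5_HOM (6.95% and 3.05% of all genes), with Shank1 at 2.69, Dlg2 at 2.45 and Dlgap2 at 2.09. Median log2 changes over the 32 genes were 0.32 in Puf60_mEx5_HOM and −0.20 in Puf60_pEx5_HOM, nearer to 0 than those of the receptor genes. The classes differed. In these lines 18 scaffolds were at 0.413 and −0.445 and 4 kinases at 0.407 and −0.492. The 7 genes of uptake and metabolism were at 0.144 and 0.052, and 3 vesicular transporters at −0.141 and −0.011.
In Puf60_pEx5_HOM the change from EB8 to DIV7 was steeper for 4, led by Grip2 (1.63), Shank1 (1.58) and Dlg2 (1.34), and less steep for the glial glutamate transporter Slc1a3 (−1.24), where 2.42% and 1.64% of all genes were called. Slc1a3 was also the only one called at DIV7 in that line (−1.14), where 2.57% of all genes were called in either direction. In ESC 2 were higher and 1 lower there, namely the neuronal transporter Slc1a1 (1.89), Dlgap3 (1.10) and Camk2d (−1.03), where 0.969% and 1.50% of all genes were called. These scaffolds and Slc17a6 moved in the direction of the receptor genes at EB8, with the neuronal marker sums given above beside them.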

How the data were processed

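The authors deposited RPKM per gene and group, with log2 fold changes and false discovery rates (p-value scale) of their own comparisons, per the file headers. They also deposited percent spliced-in values (percent) and quality scores that hold read counts per event and library, per the file headers. Per the submitters' processing notes, the build was mm10 and the tools included Salmon 0.14.1 and edgeR.

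Junction-spanning reads of 189118 intron events were summed per gene, scaled by median-of-ratios factors to CPM and filtered at 1 CPM in 2 libraries (13938 genes). limma 3.58.1 in R 4.3.3, with trended and robust variance, was fitted to log2(CPM + 1) over 30 libraries. Its p-values were adjusted by Benjamini-Hochberg over all genes, and fold changes on this scale understate those of low genes. PSI was recomputed from reads and tested with limma on log2((inclusion + 1)/(exclusion + 1)), weighted by reads, for events with 10 reads in every library of the fit and a mean PSI of 5 to 95. PSI from reads matched 21636 deposited values, 100% within 1 point. Scripts were tested on simulated data.

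Values in every library are given for members called between lines, the highest member of each class and members whose libraries stand apart. Named events are those called, with the flip, flop, N1, C1 and C2 forms. Up to 3 called pathway genes are named per comparison, by size. Alternatives were total and quantile scaling, a 0.5 pseudocount, no filter, fewer libraries, a replicate block, no weights, a 20-read minimum and leaving out each library. The members and all lists were chosen with earlier results of these data known, and the direct splicing comparison of the homozygous lines was added after seeing the data. Columns of per-sample values not used numbered 0.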

Additional observations from a re-analysis of the deposited data

Results flagged for a closer look

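The change from EB8 to DIV7 differed between Puf60_pEx5_HOM and WT, by the interaction test, in 6 receptor genes. On the log2 scale the difference was 1.54 for Grin1, 1.32 for Cnih3, 1.22 for Cnih2, 1.16 for Cacng2, 1.10 for Grik3 and 1.02 for Cacng4, each higher in Puf60_pEx5_HOM. Cacng4 was under 2-fold when libraries were scaled to their totals (0.95) or by quantiles (0.88), and Cnih2 missed the adjusted p with quantile scaling (0.0595). For all 6 the DIV7 difference from WT was under 2-fold and did not pass. The EB8 libraries enter the interaction test, so low EB8 values of these genes in Puf60_pEx5_HOM are not a separate result. The pan-neuronal marker sum moved alongside, from 744 to 881 CPM at EB8 (WT 1152 to 1279) to 3503 to 3956 CPM at DIV7 (WT 3477 to 4035), and its part in these differences was not tested.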

How the results depend on the processing

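No single called gene or event changed sign under the alternatives listed above. The order of the median changes of the WT steps did reverse on raw ratios, at 3.17 and 2.87. Of 126 values for counts of genes under other settings 124 stayed within 1.5 times, and of 42 for counts of events 40 did. With a pseudocount of 0.5, 7 members were higher in Puf60_mEx5_HOM than WT at EB8 (3 with 1), and 2 members were lower for its change to DIV7 (0 with 1). Without weights, 0 events were called in Puf60_pEx5_HOM at DIV7 (10 with them), and with a 20-read minimum 13 were called from EB8 to DIV7 in WT (20 with 10 reads). Leaving out 1 library gave 1 to 8 genes for Puf60_pEx5_HOM at EB8, 2 to 5 for Puf60_mEx5_HOM at EB8 (5 without library B of EB8 WT), 3 to 7 for the change in Puf60_pEx5_HOM, and 0 to 1 for that in Puf60_mEx5_HOM. It gave 2 to 4 for Puf60_pEx5_HOM in ESC. Between the homozygous lines the ranges were 18 to 18 at EB8, 0 to 1 at DIV7 and 2 to 5 among ESC libraries, and in WT 15 to 17 and 27 to 28. For events it gave 2 to 3 in Puf60_pEx5_HOM at DIV7, 0 to 1 from ESC to EB8 and 16 to 21 from EB8 to DIV7 in WT.

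The labels do not say whether library letters pair samples, and the letters were used as names only. Over 105 pairs of groups the A minus B deviations correlated from −0.264 to 0.624, with 27 over 0.1. Within ESC all 10 pairs lay between 0.321 and 0.529, so libraries of one letter deviated together at that stage, whereas 5 of 10 pairs at EB8 and 4 of 10 at DIV7 were over 0.1. With the letter as a replicate block the counts of genes did not change, and Puf60_pEx5_HOM at DIV7 had 7 called events in place of 10. Gria3 flip, Gria3 flop and the Grin3a acceptor then had adjusted p of 0.0613, 0.0618 and 0.0527. Depth limits the ESC values, since 7 members had no spliced read in WT ESC, and the exon values there rest on few reads.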
